A study of Homo sapiens with 2 samples.

Results

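PTBP1, PTBP2 and PTBP3 are the 3 polypyrimidine tract-binding proteins, and RAVER1 is a protein that binds PTBP1 and acts with it in exon repression. Their splicing events were described in AC16 cells, a human cell line that is established in culture and carries the label cardiomyocyte. All listed events whose gene identifier was that of PTBP1, PTBP2, PTBP3 or RAVER1 were taken, in all 5 event types. They made up 38 of the 42783 events of the DCRT-KO library and 20 of the 35307 events of the WT library, from 4 of 8028 genes. In the DCRT-KO cells a long non-coding RNA, DCRT, was removed by CRISPR-Cas9 knockout, and the WT cells are the wild type of the same line. Each genotype had 1 library, so no difference between genotypes could be tested, and every value describes these 2 libraries. The labels do not say whether the edited cells came from 1 clone. The study asked how losing DCRT changes alternative splicing, and its title names PTBP1.

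Polypyrimidine tract-binding proteins bind pyrimidine-rich RNA through RNA recognition motifs and mostly repress the exons beside their sites. PTBP1 is widely expressed and favours skipping of exon 11 of its own transcript, which shifts the reading frame and exposes the RNA to nonsense-mediated decay. It also represses exon 10 of PTBP2, the relative that prevails in neurons, in the same way. Exon 9 of PTBP1 lies in the linker between the second and the third RNA recognition motif, and forms lacking it repress some exons less strongly. PTBP3 was first described in blood cells and shares most of the domain structure of PTBP1.

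The exons on which these circuits turn can be read side by side in the GENCODE v29 transcripts, on GRCh38. The first pair is PTBP1 exon 9 (chr19:805492-805569, plus strand) and its counterpart, PTBP3 exon 8 (chr9:112234820-112234897, minus strand), both of 78 bases and coding. Capitals in PTBP1 exon 9 mark the 21 bases that are absent when a downstream acceptor is used. Compared position by position without gaps, the pair was identical at 50 of 78 positions (64.1%). Stretches that match after a shift of a few bases count as different here.
PTBP1 exon 9: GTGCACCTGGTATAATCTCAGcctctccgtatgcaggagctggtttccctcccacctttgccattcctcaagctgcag
PTBP3 exon 8: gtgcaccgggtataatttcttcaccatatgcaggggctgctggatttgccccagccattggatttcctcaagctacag

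The second set is the 34-base coding exon that all 3 relatives carry, followed in each reference transcript by exons of 93, 217 and 78 bases. It is exon 11 of PTBP1 (chr19:807869-807902, plus strand), exon 10 of PTBP2 (chr1:96806419-96806452, plus strand) and exon 10 of PTBP3 (chr9:112231380-112231413, minus strand). Capitals mark bases that differ from PTBP1. PTBP2 matched PTBP1 at 25 of 34 positions (73.5%) and PTBP3 matched PTBP1 at 22 of 34 (64.7%).
PTBP1 exon 11: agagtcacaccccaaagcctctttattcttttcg
PTBP2 exon 10: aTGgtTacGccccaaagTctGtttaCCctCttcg
PTBP3 exon 10: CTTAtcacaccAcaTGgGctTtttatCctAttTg

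Leaving out the 34-base exon joins its neighbours out of frame, and the new stop codon falls at the same place in PTBP1 and PTBP2. The sequences below give the last 18 bases of the upstream exon and the first 42 of the downstream exon, with the stop codon in capitals. The PTBP1 junction joins chr19:806539-806556 to chr19:808360-808401, and the PTBP2 junction joins chr1:96804922-96804939 to chr1:96806866-96806907, both on the plus strand. In both genes the stop starts at base 25 of the downstream exon. Leaving out PTBP3 exon 10 also gives a stop, 361 bases before the last exon junction, the distance found for PTBP1 and PTBP2.
PTBP1 exon 10 joined to exon 12: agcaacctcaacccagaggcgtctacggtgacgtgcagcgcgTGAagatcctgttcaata
PTBP2 exon 9 joined to exon 11: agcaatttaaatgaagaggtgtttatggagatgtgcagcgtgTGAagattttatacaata

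More events of PTBP1, PTBP2 and RAVER1 were listed in DCRT-KO than in WT, while PTBP3 had slightly more in WT. PTBP1 had 15 events in DCRT-KO and 7 in WT. PTBP2 had 6 in DCRT-KO and 0 in WT. RAVER1 had 8 and 2, and PTBP3 had 9 and 11. After adding 1 to each number, the ratio of DCRT-KO to WT was 2 for PTBP1, 7 for PTBP2, 3 for RAVER1 and 0.833 for PTBP3. Thus 3 of the 4 genes had at least 2-fold more events in DCRT-KO and 0 of 4 had at least 2-fold more in WT. Over the 4345 genes with at least 5 events in both lists together, 30.1% passed this fold in DCRT-KO and 16.6% passed it in WT, and the median ratio was 1.25. With event numbers divided by the length of each list, 23.5% of those genes passed in DCRT-KO, and PTBP2 and RAVER1 still passed but PTBP1 did not. PTBP1 lay exactly at the 2-fold limit. Of its events, 8 of 15 in DCRT-KO and 2 of 7 in WT were unannotated introns, each spliced by 1 isoform and described below. For RAVER1, 3 of 8 in DCRT-KO and 0 of 2 in WT were unannotated introns. A gene with 6 or more DCRT-KO events and none in WT, like PTBP2, was not rare, since 181 of 2382 such genes had none. A gene's number of events depends on its expression and on depth as well as on splicing, and the depth of the libraries is unknown here.

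**Figure D1:**
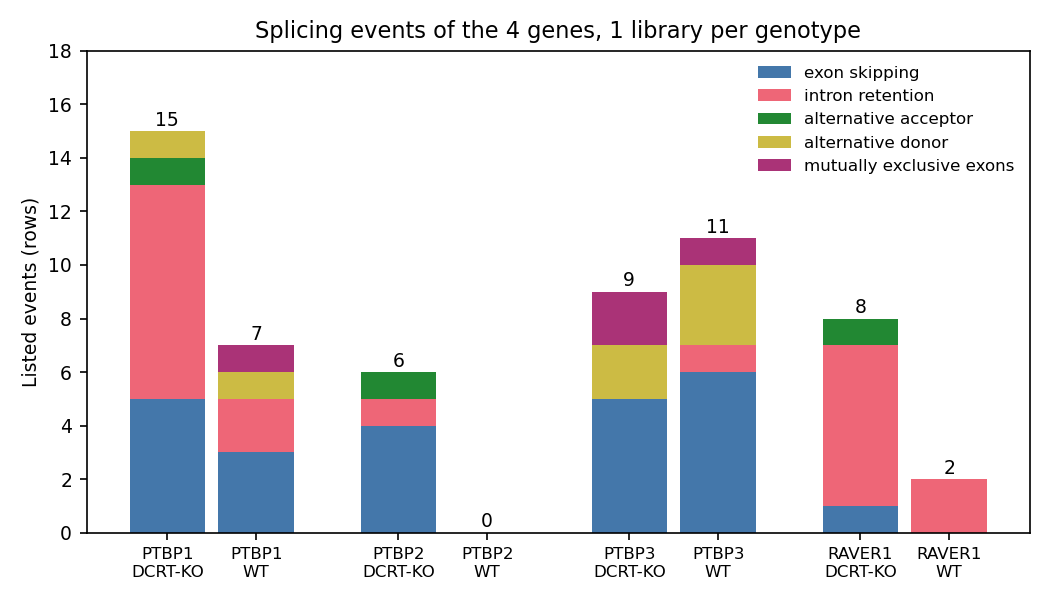
Listed events (number of rows) of each gene in each library, stacked by event type, with the total above each bar. PTBP1, PTBP2 and RAVER1 have the taller bar in DCRT-KO, and PTBP2 has no bar in WT.

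**Figure D2:**
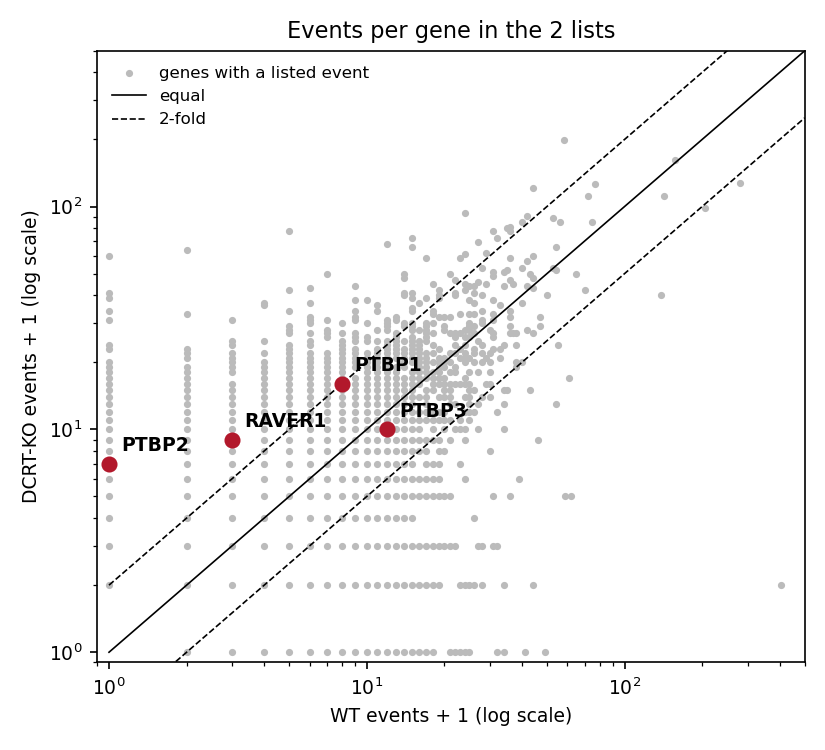
Events per gene plus 1 in WT (x axis) and DCRT-KO (y axis), both on log scales, for all genes with a listed event (grey) and the 4 genes named (red). The solid line marks equal numbers and the dashed lines a 2-fold difference; PTBP1 lies on the upper dashed line, PTBP2 and RAVER1 above it and PTBP3 just below the solid line.

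Exon skipping and intron retention were the commonest event types of the 4 genes. Exon skipping made up 15 of 38 events in DCRT-KO (39.5%, exact 95% binomial interval 24 to 56.6%) and 9 of 20 in WT (45%, 23.1 to 68.5%). The whole lists held 39.7% and 34.5%. Intron retention made up 15 of 38 events in DCRT-KO (39.5%) and 5 of 20 in WT (25%, 8.66 to 49.1%), beside 28.6% and 35.1% of the whole lists. All these intervals contain the share of the whole list. Intervals cover counting error only and treat events as independent, although events of a gene share isoforms.

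A listed event names the isoforms of the library that carry each of its forms, so the exons can be counted over isoforms. PTBP1 had 33 library isoforms in DCRT-KO and 21 in WT, PTBP2 had 8 and 0, PTBP3 had 5 and 12, and RAVER1 had 16 and 4. An isoform is a distinct transcript model and not a read, so these counts give no inclusion level.

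PTBP1 (ENSG00000011304, chr19:797075-812327, plus strand) had the most isoforms of the 4 genes, and exon 9 split them differently in the libraries. In DCRT-KO, the events at exon 9 name 20 isoforms. Of these, 13 carried the full exon of 78 bases and 2 the short form of 57 bases. The other 5 lacked exon 9 (25%, exact 95% interval 8.66 to 49.1%). A further isoform, given below with exon 10, appears to lack exon 9 but is not in this count. In WT, 10 of 10 isoforms carried the full exon and 0 lacked it, which allows a share of up to 30.8% by the exact 95% interval. The exact intervals of the libraries overlap, but they treat isoforms as independent draws. Isoforms are neither reads nor replicates, so this overlap does not compare the genotypes. The WT list still holds a skipping event at exon 9, but its skipping form was carried by the annotated transcript ENST00000349038 and by 0 isoforms of the library. Loss of the full exon keeps the reading frame and leaves 531 of 557 codons of the reference transcript ENST00000356948. Use of the downstream acceptor leaves 550 codons.

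**Figure D3:**
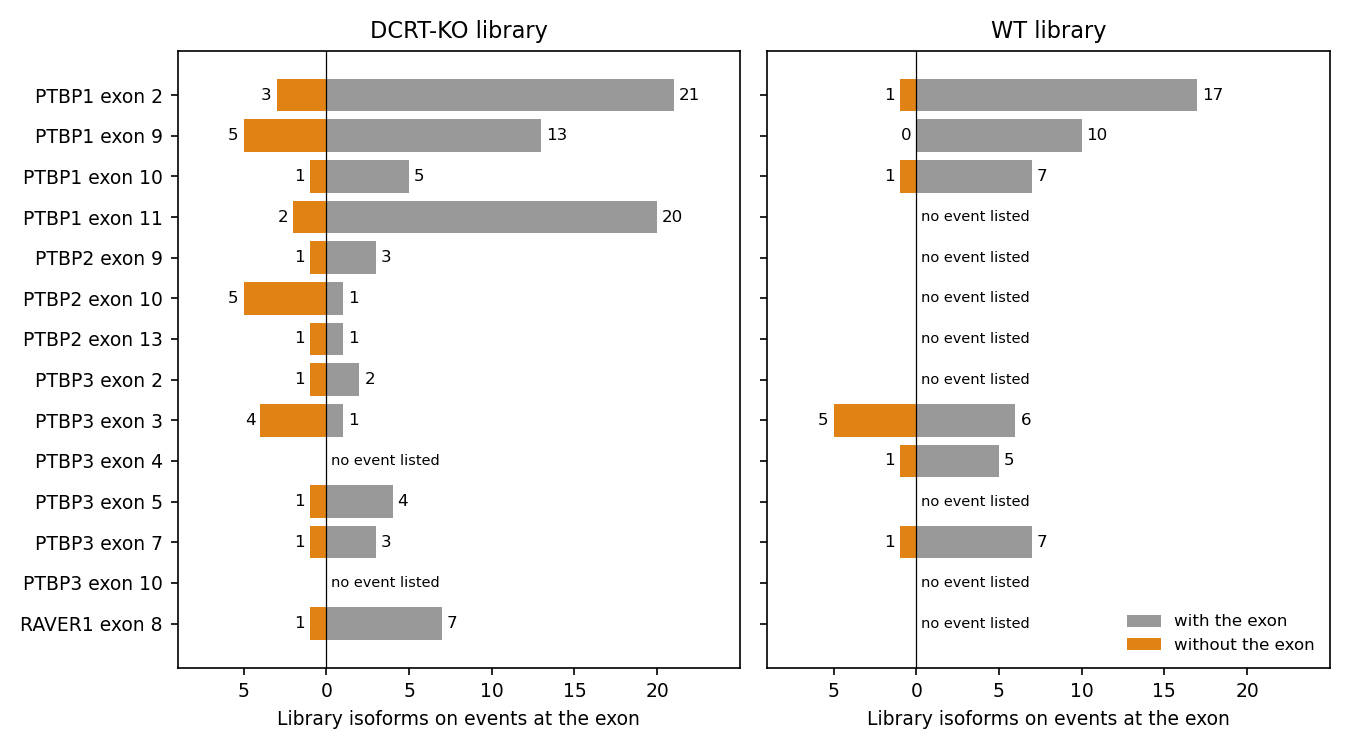
Number of library isoforms with (grey, to the right) and without (orange, to the left) each exon, counted over the events at that exon, in DCRT-KO (left panel) and WT (right panel). PTBP1 exon 9 has 5 isoforms without it in DCRT-KO and 0 in WT, and PTBP2 exon 10 has 5 isoforms without it in DCRT-KO.

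Exon 11 is the exon of the autoregulatory circuit of PTBP1. It was absent from 2 of 22 isoforms in DCRT-KO (9.09%, exact 95% interval 1.12 to 29.2%), and the WT list held no event there. Both isoforms lacking exon 11 carried exon 9, and all 5 isoforms counted as lacking exon 9 carried exon 11. Leaving exon 11 out of the reference transcript gives a stop after 381 codons, with 3 exon junctions downstream and 361 bases to the last of them, which is over the 50 bases commonly taken to expose an RNA to nonsense-mediated decay. Of the 5 GENCODE v29 transcripts without exon 11, 2 are in that class (ENST00000585932 and ENST00000621737) and 3 are classed as protein coding.

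Skipping of exons 2, 9 and 10 gave the 3 PTBP1 events that were identical in both lists. Exon 2 (chr19:799413-799443, 31 bases, coding) was absent from 3 of 24 isoforms in DCRT-KO (12.5%, 2.66 to 32.4%) and from 1 of 18 in WT (5.56%, 0.141 to 27.3%). Its loss gives a stop after 20 codons with 12 junctions downstream. Of the 3 DCRT-KO isoforms lacking exon 2, 1 also lacked exon 9 and another also lacked exon 11. Exon 10 (chr19:806408-806556, 149 bases, coding) was absent from 1 isoform in each library, with 5 isoforms carrying it in the DCRT-KO event and 7 in the WT event. The DCRT-KO event compares exon 10 among isoforms that lack exon 9 and the WT event among isoforms that carry it, so these numbers are not matched. The DCRT-KO isoform lacking exon 10 therefore appears to lack exon 9 too, and it is not in the exon 9 count. Loss of exon 10 alone leaves 338 codons before a stop, and loss of exons 9 and 10 together leaves 312.

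Exon 2 is shown because it is the shortest skipped exon of PTBP1 and its loss was listed in both libraries. No base is marked.
PTBP1 exon 2: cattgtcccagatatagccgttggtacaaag

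**Figure D4:**
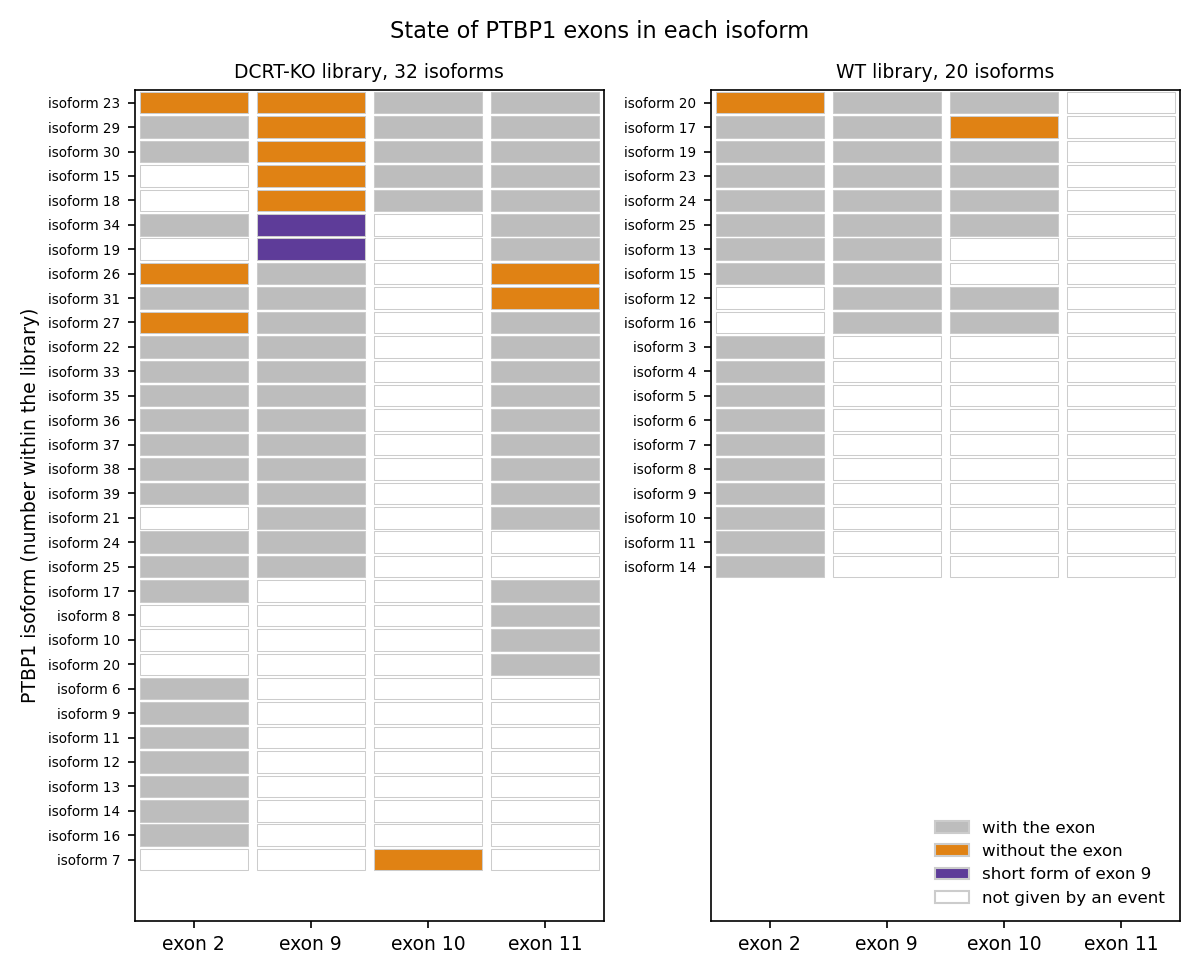
State of PTBP1 exons 2, 9, 10 and 11 (columns) in each of 32 DCRT-KO isoforms (left) and 20 WT isoforms (right) for which an event gives a state; grey is present, orange absent, purple the short form of exon 9 and white not given by an event. Orange cells of exon 9 appear in 5 DCRT-KO isoforms and in 0 WT isoforms.

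Other PTBP1 events touched exon 8 and the last exon. In DCRT-KO, 1 isoform used a donor that removes the last 45 bases of exon 8 (chr19:805143-805187), against 12 isoforms with the full exon, and the frame is kept with 542 codons. In WT, a pair of donors in exon 8 differed by 1 base and each was used by 1 isoform. All 8 intron retention events in DCRT-KO and both in WT lay inside exon 15, which holds the end of the coding sequence and the 3′ UTR. None of these introns is in GENCODE v29, and each was spliced by 1 isoform. Their lengths ran from 87 to 968 bases in DCRT-KO, and the 2 in WT were 283 and 818 bases. The introns began with GT and ended with AG in 0 of 8 cases in DCRT-KO and 1 of 2 in WT. Over all genes, only introns whose sequence lies within annotated transcripts could be read. Among these, GT-AG ends were found in 15.7% of 5136 unannotated introns of the DCRT-KO list and 12.4% of 5387 of the WT list. For annotated introns the shares were 98% of 2785 and 98.4% of 2555. A repeat of at least 4 bases across the junction was found in 5 of 8 PTBP1 introns in DCRT-KO and 1 of 2 in WT, beside 56.5% and 58.3% of unannotated and 19.2% and 18% of annotated introns. The part of junction repeats in these events was not tested.

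**Figure D5:**
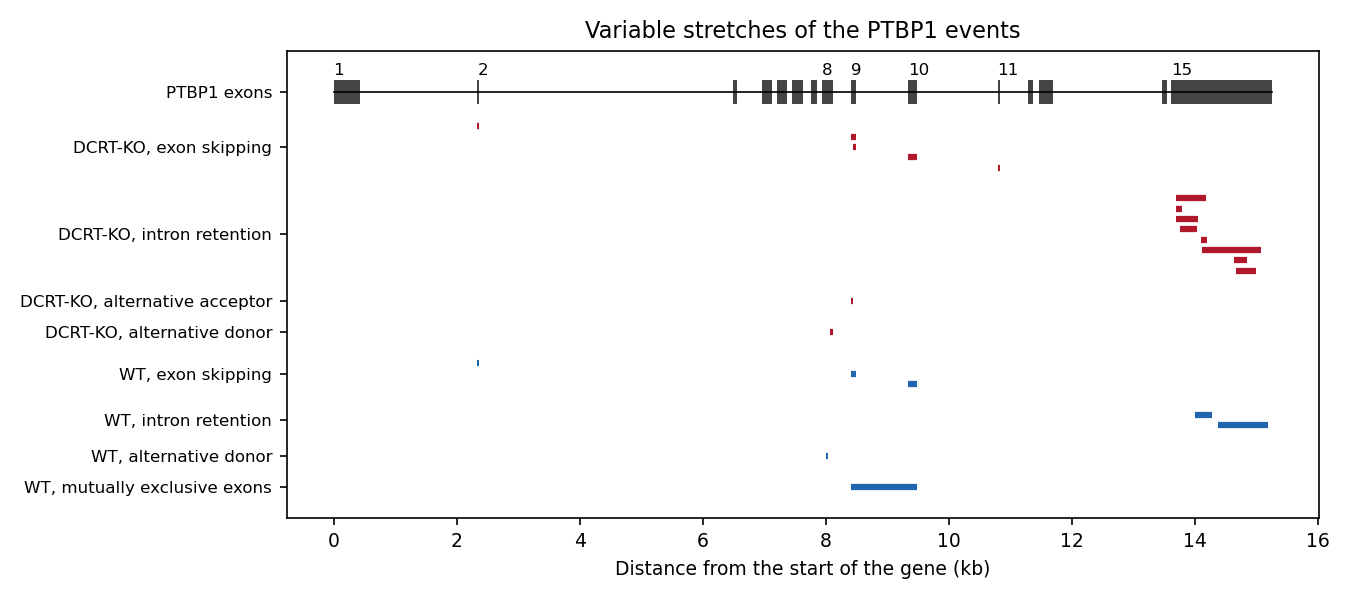
Variable stretches of the PTBP1 events of DCRT-KO (red) and WT (blue) below the exons of the PTBP1 reference transcript (dark boxes, selected exons numbered), by distance from the start of the gene in kb. The intron retention events of both libraries lie within exon 15, and the other events at exons 2 and 8 to 11.

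The sequence before the acceptor could be read only where an annotated transcript runs through the intron. The 100 bases before PTBP1 exon 9 (chr19:805392-805491, plus strand) and before exon 11 (chr19:807769-807868, plus strand) are shown. Proteins of this family bind pyrimidine-rich RNA, but binding to either stretch was not tested. Capitals mark TCTT, the only searched motif found there.
PTBP1 intron 8, last bases: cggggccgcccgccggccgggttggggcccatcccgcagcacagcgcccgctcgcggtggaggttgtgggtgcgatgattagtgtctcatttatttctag
PTBP1 intron 10, last bases: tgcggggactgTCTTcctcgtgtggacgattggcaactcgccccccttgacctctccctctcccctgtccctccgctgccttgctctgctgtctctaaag

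TCTT and CTCTCT were searched on the transcript strand alone; the motifs can overlap by up to 3 bases. The window before exon 9 held 0 matches of either, with 52% pyrimidines, and the window before exon 10 held 0 of either, with 57%. The window before exon 11 held 1 TCTT, 0 CTCTCT and 69% pyrimidines, and that before RAVER1 exon 8 held 1 TCTT, 0 CTCTCT and 54%. Among the 3906 of 21151 skipped segments whose window could be read, 55.4% held TCTT and 8.42% held CTCTCT, and the median was 55% pyrimidines. The windows of PTBP2 and PTBP3 were not analysed here.

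PTBP2 (ENSG00000117569, chr1:96721665-96823738, plus strand) was listed in DCRT-KO alone, with 6 events, so its forms have no WT value. The event at exon 10, the 34-base exon, names 6 isoforms. Of these, 5 lacked the exon (83.3%, exact 95% interval 35.9 to 99.6%) and 1 carried it, as did annotated transcripts. Leaving it out of the reference transcript ENST00000609116 gives a stop after 356 of 532 codons, with 3 junctions downstream and 361 bases to the last, the same distance as in PTBP1. Exon 9 has a pair of acceptors 15 bases apart, giving exons of 140 and 155 bases. The longer form was in 2 isoforms and the shorter in 3, and all 5 lacked exon 10. A further isoform lacked exon 9 altogether, in events whose carriers of exon 9 all lacked exon 10. It therefore appears to lack exon 10 too, although it is not in the exon 10 count, and its own frame was not computed. Loss of exon 9 alone from the reference transcript leaves 326 codons before a stop. Exon 13 (chr1:96813029-96813106, 78 bases) was absent from 1 isoform and present in 1, and both of these isoforms lacked exon 10. Loss of exon 13 alone from the reference transcript keeps the frame with 506 codons. The annotated intron of 100 bases before exon 13, intron 12, was retained in 2 isoforms and spliced in 3. An absent WT list entry can mean expression below detection, and the expression of PTBP2 was not measured here.

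PTBP3 (ENSG00000119314, chr9:112217716-112333667, minus strand) had events in both libraries, and several were identical. Of its events, 5 of 9 in DCRT-KO and 7 of 11 in WT had an identical entry in the other list. With repeated events counted once, 3 of 7 did in each library. They were an alternative donor of exon 2 and skipping of exons 3 and 7. Exons are numbered as in the reference transcript ENST00000374257, and other transcripts of the gene number them differently.

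The donors of exon 2 lie 9 bases apart (chr9:112297832-112297840, minus strand), and these 9 bases are shown because they end with the start codon of the shorter coding transcript ENST00000343327, in capitals. That transcript lacks exon 3 and has 457 codons, whereas the reference has 524.
PTBP3 exon 2, last bases: gtgtgtATG

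In DCRT-KO, 3 isoforms used the longer exon 2 and 1 used the shorter one, while 4 WT isoforms used the longer and 7 the shorter. Exon 3 (chr9:112275844-112276013, 170 bases, coding) was absent from 4 of 5 isoforms in DCRT-KO (80%, exact 95% interval 28.4 to 99.5%) and from 5 of 11 in WT (45.5%, 16.7 to 76.6%). These intervals overlap. All 3 DCRT-KO isoforms with the longer exon 2 lacked exon 3, and so did the 1 with the shorter. Of the 7 WT isoforms with the shorter exon 2, 5 carried exon 3 and 2 lacked it, and of the 4 with the longer form 1 carried it, 2 lacked it and the state of the other was not given. Read from the start codon of the reference transcript, loss of exon 3 gives a stop after 18 codons with 10 junctions downstream.

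Other PTBP3 exons were each skipped in 1 isoform. Exon 2, which holds the start codon of the reference transcript, was absent from 1 DCRT-KO isoform, and the WT list held no event that skips it. Exon 4 (147 bases) was absent from 1 WT isoform and present in 5. Exon 5 (165 bases) was absent from 1 DCRT-KO isoform and present in 4. Exon 7 (chr9:112250929-112251103, 175 bases) was absent from 1 isoform in each library, with 3 carriers in DCRT-KO and 7 in WT. Its loss alone gives a stop after 213 codons. The DCRT-KO isoform lacking exon 7 also lacked exons 3 and 5, and the WT isoform lacking exon 7 also lacked exon 3. Read from the start codon of the reference transcript, each of these combined losses gives a stop after 18 codons. In WT, 1 isoform held an unannotated exon of 254 bases in intron 1 (chr9:112321272-112321525) that 6 others lacked, and 1 retained the annotated intron 6 of 1574 bases, against 2 that spliced it. Neither list held an event at exon 8, the counterpart of PTBP1 exon 9, or at exon 10, the 34-base exon shown above.

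RAVER1 (ENSG00000161847, chr19:10316212-10333640, minus strand) carries RNA recognition motifs and short peptide motifs through which it binds PTBP1. Its events were mostly intron retention, 6 of 8 in DCRT-KO and 2 of 2 in WT. Both WT events were also listed in DCRT-KO. The first is retention of intron 12 (chr19:10317601-10317689, 89 bases), retained in 1 isoform and spliced in 8 in DCRT-KO, and retained in 1 and spliced in 1 in WT. The second is the removal of 75 bases within exon 9 (chr19:10320783-10320857), which keeps the frame with 731 of the 756 codons of the reference transcript ENST00000611074. It was spliced out in 1 isoform of each library, with 8 isoforms keeping the segment in DCRT-KO and 3 in WT.

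The other RAVER1 events were listed in DCRT-KO alone. A single isoform lacked exon 8 (chr19:10321048-10321259, 212 bases, coding) and also removed 133 bases of exon 9 (chr19:10320725-10320857), while 7 isoforms carried exon 8. Loss of exon 8 alone gives a stop after 469 codons, and loss of the 133 bases alone gives a stop after 662 codons. Both losses together remove 345 bases, keep the frame and leave 641 codons. The segments of 75 and 133 bases share their donor and both have GT-AG ends. The segment of 75 bases is an intron of GENCODE v29, whereas that of 133 bases is not. Their acceptors, 58 bases apart, were also listed as an alternative acceptor event. Intron 11 (chr19:10317774-10318228, 455 bases) was retained in 1 isoform and spliced in 12. A segment of 54 bases in exon 3 with CT-CA ends and a segment of 632 bases in the 3′ UTR with AC-AC ends were each spliced by 1 isoform and are not in GENCODE v29.

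Across the 4 genes, 8 distinct events were identical in both lists. They took 10 of 38 DCRT-KO events (26.3%, exact 95% interval 13.4 to 43.1%) and 12 of 20 WT events (60%, 36.1 to 80.9%). The whole lists shared 30.6% and 35.7%. By this count the DCRT-KO interval contains the whole-list value and the WT interval lies just above it. With repeated events counted once, the 8 were 22.2% of 36 in DCRT-KO (10.1 to 39.2%) and 50% of 16 in WT (24.7 to 75.3%). Both intervals contain the value of the whole list counted in the same way, 28% in DCRT-KO and 33.4% in WT.

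Of 18 cofactors, relatives, binding partners and targets, 15 had an event, with 225 events in DCRT-KO and 206 in WT. For 8 genes DCRT-KO had the higher number of events, for 4 WT had, and for 6 the numbers were equal, 3 of which (PCBP1, KHSRP and UPF1) had no event in either list. Over the 15 with an event the median difference was 1 event toward DCRT-KO, as over all genes with an event. The largest differences toward DCRT-KO were in NONO, a paraspeckle protein (51 against 34), and PCBP2, which binds poly(C) (19 against 9). The largest toward WT was in RBFOX2, a splicing regulator that binds GCAUG (3 against 11). MATR3, a nuclear matrix protein that binds PTBP1 (22 against 26), U2AF1, the factor that reads the AG of acceptors (0 against 4), and ACTN1, a gene with exons known to be repressed by PTBP1 (23 against 27), shared the next place. Of the 10 partners with enough events, 1 passed the 2-fold rule in DCRT-KO (PCBP2) and 1 in WT (RBFOX2), beside the 30.1% and 16.6% of all genes given above.

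The libraries also differed in marker genes. Of 16 cardiomyocyte markers 2 had an event, MYL3 with 1 and NPPB with 2, both in WT, and TNNT2, MYH6, MYH7, ACTN2, TTN and RYR2 had none. Of 8 fibroblast markers, 7 had an event, with 3 events in DCRT-KO and 505 in WT. COL1A1 gave 405 of the WT events, the others gave 100 in WT and 2 in DCRT-KO, and PDGFRA was listed in DCRT-KO alone. Of 6 epithelial markers, 3 had an event, with 79 in DCRT-KO and 22 in WT. The neuronal marker SNAP25 had 8 events in WT and the other 3 of 4 neuronal markers had none. The part of these differences in the events of PTBP1, PTBP2, PTBP3 and RAVER1 was not tested. No gene of the tables is named DCRT, so the knockout was not checked in these lists.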

How the data were processed

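Alternative splicing events were listed for 2 AC16 libraries, grouped by the genotype labels. The series' design text names PacBio long reads, while the labels' protocol names paired-end Illumina libraries, and this conflict is not settled here. The submitters' processing notes name minimap2 and the build hg38. For the isoform builder, the event caller, versions and filters, the sources used here give nothing. Each deposited row, per the file headers, gives 1 event with its gene, splice positions and the isoforms of both forms. The deposited tables hold no counts of reads, levels or scores, so the depth is unknown.

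Each row was counted as 1 event. Positions were compared with GENCODE 29 (GRCh38), whose transcript sequences gave all bases printed. Of the 8 annotated transcripts of the 4 genes named in the tables, 7 are in that release. Library isoforms were counted over all events at an exon with exact boundaries. An isoform that skips the exon together with a neighbour can be missed by this count. Reading frames were computed by removing a stretch from 1 reference transcript per gene and reading from its start codon, so other differences of an isoform are not included. The fold rule adds 1 to each number of events. Junction repeats are bases shared across the ends of an intron. Intervals are exact (Clopper-Pearson, 95%). For isoform numbers they treat transcript models as independent draws and do not compare the genotypes. Events are named where both lists share them, where they hold a regulated exon or where they have the most isoforms of their gene, and partner genes where they have the 2 largest differences in each direction, ties included. The members and lists were chosen with earlier results of these data known. Python 3.11.15, scipy 1.17.1 and matplotlib 3.10.9 were used.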

Additional observations from a re-analysis of the deposited data

How the results depend on the processing

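No paired analysis was possible because each genotype had 1 library, and leaving out a replicate was not possible for the same reason. Most events rest on 1 isoform for a form. With at least 2 library isoforms required on each form, the 4 genes kept 7 events in DCRT-KO and 2 in WT, the 18 partner genes kept 51 and 52, and 0 events of the 4 genes were shared in either list. With a library isoform required on both forms, 6 DCRT-KO events of the 4 genes were shared, and with any overlap counted as shared, 21 were. From exon skipping events alone, 0 DCRT-KO isoforms carried PTBP3 exon 2 and 0 carried PTBP3 exon 3, against 2 and 1 over all events. In a window of 200 bases, CTCTCT matched once before PTBP1 exon 9 (1 match, against 0 in 100 bases), and 12.5% of windows of that length held it. The other 59 values under an alternative were classed as unchanged, by limits not stated here. Several of them could not change, since exons without a WT skipping event had 0 WT isoforms at every setting. The same class held a fall from 3 to 2 genes past the 2-fold rule after division by list length. It also held a fall from 12 to 8 shared WT events of the 4 genes with repeated events counted once. The number of values so classed is therefore no measure of robustness. The PTBP1 exon 9 numbers were the same with boundaries within 5 bases. Depth, replicate spread and inclusion levels cannot be had from these lists, so numbers of isoforms and events limit what can be read from them.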
